A study of Mus musculus with 5 samples.

Results

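The regions described here were the H3K27ac peaks that lay just past the ends of protein-coding genes in large intestinal Treg cells. A peak belonged to them if it was narrower than 3000 bp, overlapped no protein-coding gene, lay more than 3 kb from every protein-coding transcription start site (TSS), and had its midpoint within 5 kb downstream, by strand, of a protein-coding gene end in GENCODE M21 (mm10). In all, 3487 of 124158 peaks (2.81%) met these conditions, and they followed the ends of 2611 genes. The rule used positions and width only, not the level of any library.

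H3K27ac was profiled by CUT&Tag, in which an antibody tethers a transposase that cuts and tags DNA beside the marked nucleosomes. The cells, gated as CD3+CD4+Foxp3-YFP+, were Treg cells of the large intestine, and the C57BL/6 mice were aged 2 weeks and at steady state. KO libraries came from Foxp3Cre Setd2flox/flox mice and Ctrl libraries from Foxp3Cre Setd2flox/+ littermates, with 2 libraries per group. Each library held 60000 cells pooled from 3 to 5 mice of both sexes, so differences between mice within a pool were not measured. Both groups carried the Foxp3-driven Cre, which acts in Treg cells, and the Ctrl cells carried 1 floxed Setd2 allele. The comparison was thus between both alleles floxed and 1 floxed, without a group in which both alleles were intact. An IgG library was also listed and was not analysed here.

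H3K27ac marks nucleosomes at active promoters and enhancers, where it is placed by the acetyltransferases p300 and CBP. Setd2 travels with elongating RNA polymerase II and trimethylates H3K36 over transcribed gene bodies, and this mark rises towards the 3′ end and fades beyond it. The sequence just past a gene end is where the polymerase terminates, and it can also hold enhancers and the promoters of noncoding genes.

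Counts in peaks totalled 2395002 for Ctrl 1, 3630447 for Ctrl 2, 3007444 for KO 1 and 4712473 for KO 2. Of these, 40017 (1.67%, 95% exact binomial interval 1.65 to 1.69) and 58916 (1.62%, 1.61 to 1.64) fell in downstream peaks in Ctrl 1 and Ctrl 2. The figures were 49817 (1.66%, 1.64 to 1.67) in KO 1 and 70385 (1.49%, 1.48 to 1.5) in KO 2, and the intervals cover counting error only. The share was 1.65% ± 0.0340 (SD, n = 2) in Ctrl and 1.58% ± 0.115 (SD, n = 2) in KO, and this difference was within the spread of the libraries (exact permutation test, two-sided p = 0.667). With 2 libraries against 2, that test cannot give a p below 0.333. Most downstream peaks were shallow, with a median count of 7 to 12 per library, and 2.93% to 4.85% of them had no count in a given library. Promoter peaks of all 8 Treg and T cell markers, among them Foxp3, Il2ra, Cd3e and Cd4, were present in every library, with a summed level of 1178 to 1537 counts per 1000000 (CPM) in Ctrl and 1407 to 1937 CPM in KO. Promoters of Ms4a1 and Pax5 (B cells), Lyz2, Csf1r and Itgam (myeloid cells), Krt18 (epithelium), Cd8a and Ncr1 (CD8 and NK cells), and Col1a1 and Col3a1 (stroma) held no peak. The summed markers of these other cells ranged from 13.1 to 102 CPM in Ctrl and from 14.9 to 107 CPM in KO, led by Pecam1 and Cd68. Setd2 itself had no downstream peak, and the H3K27ac at its promoter was 26.2 and 25 CPM in Ctrl and 27.2 and 33.3 CPM in KO, which does not read out the deletion.

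Sequence is shown for 4 downstream peaks so that their composition can be read beside their levels. These are the 3 peaks with the highest mean level and the peak ranked first by p among those where both KO values exceeded the Ctrl values. Each line gives the central 300 bases of the peak on the plus strand of mm10, read from GRCm38.p6, and capitals mark matches to the short motifs listed further on.
Prss12 peak, chr3:123508667-123508966: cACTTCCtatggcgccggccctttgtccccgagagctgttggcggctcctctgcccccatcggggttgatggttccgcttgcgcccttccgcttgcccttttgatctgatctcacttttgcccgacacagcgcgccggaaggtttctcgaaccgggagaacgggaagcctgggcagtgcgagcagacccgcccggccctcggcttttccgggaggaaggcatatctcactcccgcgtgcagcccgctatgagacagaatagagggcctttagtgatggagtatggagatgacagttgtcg
Anp32e peak, chr3:95951354-95951653: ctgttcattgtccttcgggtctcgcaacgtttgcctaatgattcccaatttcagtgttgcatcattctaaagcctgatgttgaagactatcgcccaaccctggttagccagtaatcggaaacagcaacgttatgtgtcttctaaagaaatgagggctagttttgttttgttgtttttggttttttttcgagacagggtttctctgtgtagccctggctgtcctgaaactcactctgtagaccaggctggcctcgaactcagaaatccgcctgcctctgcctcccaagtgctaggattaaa
Midn peak, chr10:80159315-80159614: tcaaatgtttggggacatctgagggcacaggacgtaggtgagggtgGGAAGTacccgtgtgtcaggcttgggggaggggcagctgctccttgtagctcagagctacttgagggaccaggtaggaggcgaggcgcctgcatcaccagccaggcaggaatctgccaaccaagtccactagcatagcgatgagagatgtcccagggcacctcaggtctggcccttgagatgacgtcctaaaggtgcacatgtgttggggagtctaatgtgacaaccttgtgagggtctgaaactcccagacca
Trappc3l peak, chr10:34110991-34111290: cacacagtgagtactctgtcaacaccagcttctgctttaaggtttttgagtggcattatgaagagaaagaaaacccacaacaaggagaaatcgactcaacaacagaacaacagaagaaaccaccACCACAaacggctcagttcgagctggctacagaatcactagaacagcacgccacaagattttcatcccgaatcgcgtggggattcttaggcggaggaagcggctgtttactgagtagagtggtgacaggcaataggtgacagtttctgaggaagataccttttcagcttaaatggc
The Prss12 window had 61.3% GC with 24 CG dinucleotides, and the Trappc3l window had 46.3% GC with 9. The Anp32e window, from the second strongest peak, held none of the short motifs.

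Narrow H3K27ac peaks were denser just past gene ends than farther out. The sequence that met the same distance and gene conditions, called eligible here, came to 64.9 Mb within 5 kb past gene ends, and it held 53.7 downstream peaks per Mb. From 5 to 10 kb past gene ends there were 37.9 peaks per Mb, and from 10 to 20 kb there were 35. Between 3 and 8 kb before gene starts there were 40.9 per Mb, and the TSS condition left out the nearest 3 kb on that side. These 2866 peaks included downstream peaks that also lay before a gene start. The 2411 upstream peaks compared further on leave those out. At equal distances, the densities past ends and before starts were 45.8 and 34.9 at 3 to 4 kb and 45.9 and 47.1 at 4 to 5 kb. The value of 34.9 was limited by the rule. A peak centred just over 3 kb before a start reaches within 3 kb of the TSS and was left out. Farther out, the densities past ends and before starts were 40.0 and 41.0 at 5 to 6 kb, 36.4 and 41.7 at 6 to 7 kb, and 39.2 and 40.0 at 7 to 8 kb. By 1-kb bins, the density was 54.5 peaks per Mb in the first kb, reached 66.4 in the second and was 54.6, 45.8 and 45.9 in the following 3. The first bin was limited by the rule, because a peak centred close to a gene end overlaps the gene and was left out. Summed signal had the same order in every library. It was 279 and 270 CPM per eligible Mb within 5 kb in Ctrl and 286 and 260 in KO, against 216 and 192 in Ctrl and 236 and 201 in KO from 5 to 10 kb. Density and signal are not independent, because the same 4 libraries had served for peak calling.

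**Figure D1:**
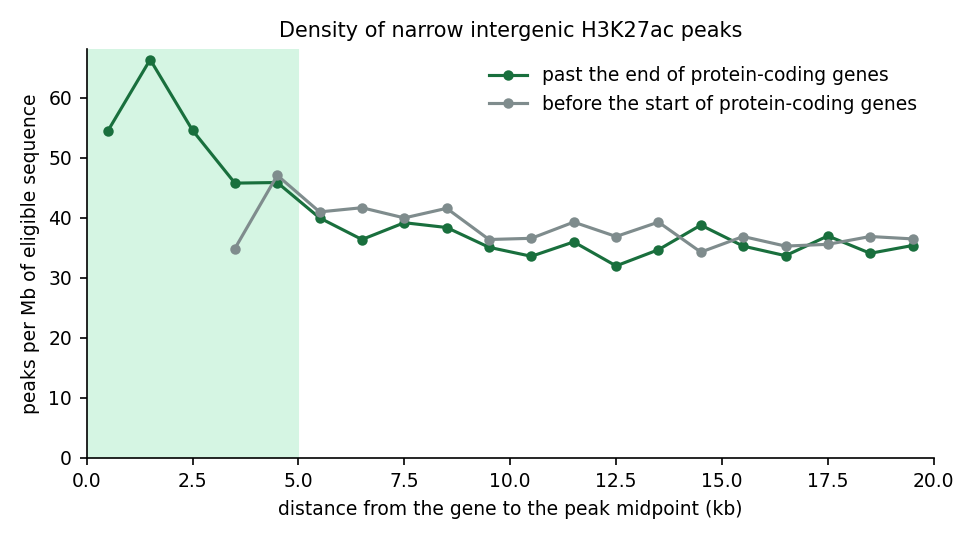
Number of narrow intergenic H3K27ac peaks per Mb of eligible sequence (vertical axis) by distance of the peak midpoint from the nearest protein-coding gene (horizontal axis, kb), past gene ends (green) and before gene starts (grey). The shaded 5 kb holds the downstream peaks, whose density peaked at 66.4 per Mb between 1 and 2 kb, while both sides lay between 32 and 41.7 per Mb beyond 5 kb.

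Whether a gene had a downstream peak went with H3K27ac at its own promoter. Among 11798 protein-coding genes with at least 4 kb of eligible sequence in the 5 kb past their end, 2260 (19.2%) had a downstream peak. The share was 7.76% (exact interval 7.07 to 8.50) for the 5501 genes without a promoter peak. It was 17.7% (15.9 to 19.7), 24.4% (22.3 to 26.6), 32.4% (30.1 to 34.8) and 42.0% (39.5 to 44.4) in 4 equal classes of the other genes, from class 1 (weakest promoter signal) to class 4 (strongest). The intervals of neighbouring classes did not overlap. They cover counting error, and genes share chromosomal neighbourhoods and are not replicates. Of the 2611 genes with a downstream peak, 2121 (81.2%) had a promoter peak, against 12638 of all 21938 protein-coding genes (57.6%).

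The density next to the gene end went with the promoter class as well, here over all genes sorted by the same promoter bounds. Around genes of class 4 there were 138 peaks per Mb within 5 kb past the end, 96.6 from 5 to 10 kb and 83.8 from 15 to 20 kb. Class 3 gave 93.1, 60.4 and 57.1 over the same distances, and class 2 gave 68.6, 48.9 and 50.5. In class 1 the values were 48.2, 46.9 and 33.9. Past genes without a promoter peak the density was 18.6 within 5 kb and 15.4 from 5 to 10 kb. Within single libraries, the level of the downstream peaks was only weakly correlated with that of the promoter. Across the 2121 genes with both, Spearman's rho between promoter CPM and downstream CPM per kb was 0.09 and 0.12 in Ctrl and 0.06 and 0.19 in KO. Both values of a gene came from the same library, and genes are not independent. Downstream peaks had a median of 7 to 12 counts per library, and how far counting noise lowered rho was not tested.

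**Figure D2:**
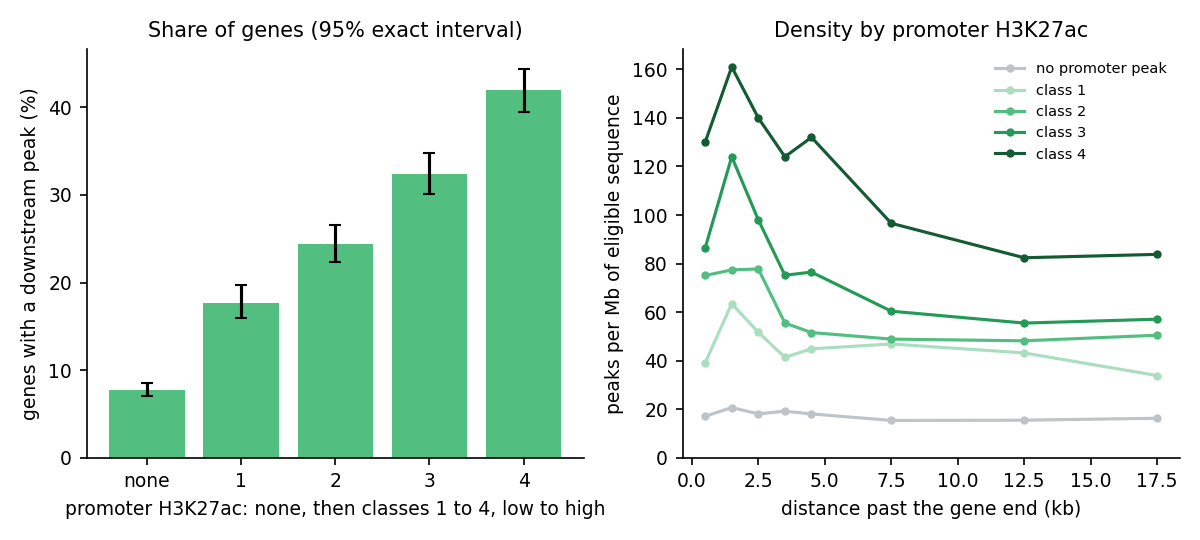
Left, share of genes with a downstream peak (%, vertical axis) for genes without a promoter peak and for the 4 classes of promoter H3K27ac, with 95% exact binomial intervals as error bars. Right, peaks per Mb of eligible sequence (vertical axis) by distance past the gene end (horizontal axis, kb) for the same classes; the share rose from 7.76% to 42.0%, and class 4 was the densest at every distance drawn.

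Downstream peaks were small and spread along the 5 kb. Their median width was 431 bp (quartiles 339 and 681), and their midpoints lay a median of 2132 bp past the gene end (1109 and 3415). They lay a median of 15070 bp from the nearest protein-coding TSS, and 2270 of them (65.1%) were more than 10 kb away. Most genes, 1936, had 1 downstream peak, 508 had 2, 136 had 3, 28 had 4 and 3 had 5. Another peak lay within 1 kb of 1427 downstream peaks (40.9%), compared with 30.8% of other intergenic peaks, 35.2% of peaks 3 to 8 kb before gene starts and 44.9% of 3′ gene-body peaks, those in the last of 3 equal parts of a protein-coding gene and over 3 kb from every TSS. Mdh2 (a mitochondrial malate dehydrogenase) and Cyb5a (cytochrome b5) were among the genes with 5. Of their 10 downstream peaks, the strongest of each gene reached a mean of 6.84 and 6.73 CPM. Both lay above the upper quartile of all downstream peaks, 5.12 CPM, and far below the strongest, at 77.4 CPM.

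At the limits of the rule, peaks on both sides were alike in level. Midpoints at 4 to 5 kb (544 peaks) had a median of 7.23 CPM per kb and those at 5 to 6 kb (451 peaks, not included) had 7.14. Peaks 3 to 4 kb from a TSS (201 peaks) had a median of 7.49 CPM per kb and those at 2 to 3 kb (244 peaks, not included) had 7.25. The 31 peaks of 2500 bp or more had a median of 13.2 CPM per kb, and the 10 peaks just past 3000 bp (median width 3268 bp), which were not included, had 12.6.

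Per length, downstream peaks had median levels within the range of peaks elsewhere outside promoters in every library but KO 2, where they were the highest. Their median was 6.73 and 7.63 CPM per kb in Ctrl and 7.67 and 5.72 in KO. The 3′ gene-body peaks had medians of 6.40 and 8.79 in Ctrl and 6.13 and 5.44 in KO. Other intergenic peaks had 6.65 and 5.14 in Ctrl and 9.31 and 4.51 in KO, and upstream peaks had 6.95 and 5.89 in Ctrl and 9 and 5.41 in KO. On the log2(CPM per kb + 0.1) scale, the median of downstream peaks minus that of other intergenic peaks was 0.016 and 0.560 in Ctrl and -0.277 and 0.337 in KO. The mean of these differences was 0.159 ± 0.367 (SD, n = 4; exact sign-flip test, two-sided p = 0.375). Against 3′ gene-body peaks the mean difference was 0.065 ± 0.213 (SD, n = 4; exact sign-flip p = 0.625), and against upstream peaks it was 0.043 ± 0.250 (SD, n = 4; exact sign-flip p = 0.750). With 4 libraries that test cannot give a p below 0.125. None of the 3 mean differences exceeded the spread between the 4 libraries. Downstream minus 3′ gene-body peaks was 0.070 and -0.202 in Ctrl and 0.319 and 0.073 in KO, with the KO pair above the Ctrl pair (KO minus Ctrl 0.262; exact permutation p = 0.333, the smallest this design can give). For the other 2 differences the groups overlapped (exact permutation p = 0.667 each).

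Among themselves, downstream peaks ranged over 2 orders of magnitude, from a mean of 0.734 to 77.4 CPM with a median of 3.09. The 349 strongest held 38.9% of their summed level, and the 12 strongest held 3.74%.

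The strongest one coincided with a noncoding gene. It lay 2219 bp past the end of Prss12, a secreted serine protease gene, and contained the start of Snora24, an RNA that guides pseudouridylation of ribosomal RNA (chr3:123507652-123509981, Snora24 at 123507937 to 123508066 on the minus strand). It counted 222 and 181 in the Ctrl pair, against 248 and 262 in the KO pair, which gave 100 and 53.9 CPM in Ctrl and 92.4 and 62.8 CPM in KO. The groups overlapped, since the replicates of each group lay farther apart than the group means of 77.2 ± 32.9 and 77.6 ± 21 CPM (SD, n = 2 each). The fourth strongest, 4229 bp past Ick, held the start of Rn7sk, the RNA that keeps the elongation factor P-TEFb inactive. It measured 64.7 and 50 CPM in Ctrl and 66.3 and 58.5 CPM in KO.

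Of the other strong peaks, 5 are given in full. The Anp32e peak, past a gene for a histone H2A.Z chaperone, measured 37.1 and 78.6 CPM in Ctrl and 60.7 and 84.3 CPM in KO. The Midn peak, past a gene for a protein that carries immediate early factors to the proteasome, measured 43.9 and 54.5 CPM in Ctrl and 54.8 and 88.9 CPM in KO. Both Midn KO values lay above both Ctrl values, though KO 1 and Ctrl 2 were nearly equal, and the log2 fold change was 0.55 (SE 0.30, edgeR adjusted p = 0.998), or 0.12 without KO 2. The Cmtm6 peak, past a regulator of PD-L1 stability, measured 70.1 and 30.7 CPM in Ctrl and 67.8 and 56.3 CPM in KO, and it lay between 2 genes that end towards each other. The Nod2 peak, past the sensor of bacterial muramyl dipeptide, was the most even of the 12, with 57 and 55.4 CPM in Ctrl and 49.6 and 51.5 CPM in KO, both KO values being the lower ones. Its log2 fold change was -0.15 (SE 0.30). The Lag3 peak, 2974 bp past the gene for an inhibitory receptor of MHC class II, measured 38.5 and 36 CPM in Ctrl and 42.1 and 61.6 CPM in KO. All KO values at this Lag3 peak lay above the Ctrl values, with a log2 fold change of 0.49 (SE 0.32, edgeR adjusted p = 0.998), or 0.15 without KO 2. A second, weaker Lag3 peak, 588 bp past the gene end, went the other way. It measured 23.1 and 13.4 CPM in Ctrl and 19.7 and 8.87 CPM in KO, with a log2 fold change of -0.36.

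The other 5 of the 12 followed Actr10, a dynactin subunit gene, Cd2bp2, whose product binds the CD2 tail, Col15a1 (collagen XV), Tbc1d5, a regulator of Rab7, and Rps6ka1 (the kinase RSK1). Their mean levels were 56.2, 50.1, 49, 46.4 and 46 CPM. The Actr10 peak overlapped another protein-coding gene in RefSeq, although not in GENCODE.

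**Figure D3:**
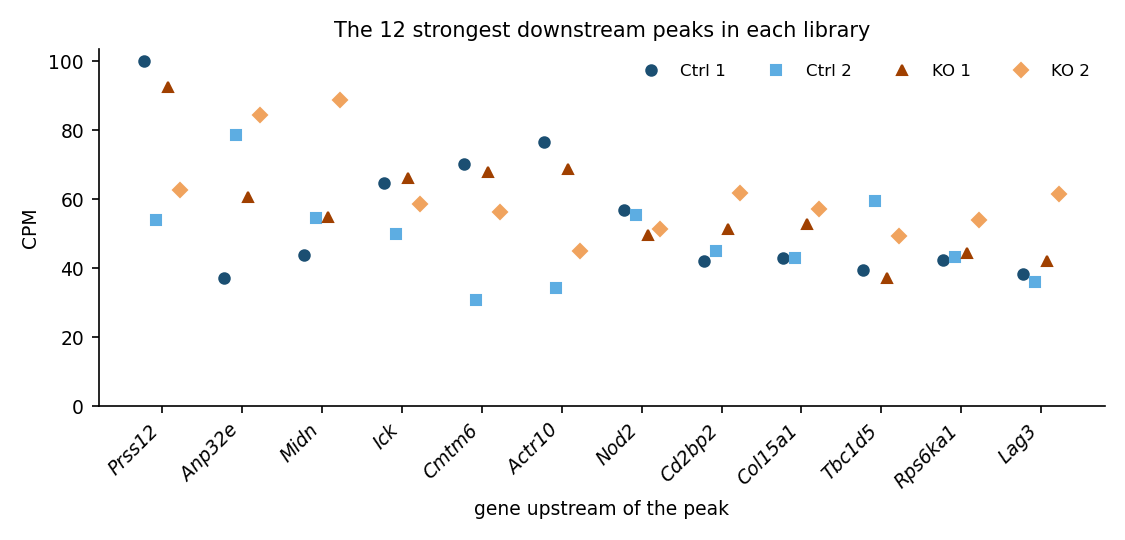
CPM (vertical axis) of the 12 downstream peaks with the highest mean level, named by the gene upstream (horizontal axis), with 1 point per library (Ctrl 1 circles, Ctrl 2 squares, KO 1 triangles, KO 2 diamonds). The peaks span means of 44.5 to 77.4 CPM, and in several, such as Prss12, Cmtm6 and Actr10, the points of Ctrl 1 and Ctrl 2 lie farther apart than the group means.

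Some downstream peaks lay near the start of a noncoding gene. A TSS of a gene of another type lay within 3 kb of 504 downstream peaks (14.5%). The nearest of these was most often that of a lincRNA (113 peaks), a processed pseudogene (90), an antisense RNA (80) or a putative transcript of the TEC type (62). In 14 peaks a small noncoding RNA gene started inside the peak. Not every one was strong, since that with Gm23341 past Mief2 had a mean of 2.25 CPM. The median width of the 14 was 1388 bp, and their median level was 13.1 CPM per kb, against 7.01 for all downstream peaks. Besides Snora24 and Rn7sk they included Snord52 past Hspa1b (24.4 and 37.2 CPM in Ctrl, 23.8 and 34.7 in KO), Scarna2 past Tmem167b (39.4 and 22.9 in Ctrl, 23.1 and 22.3 in KO) and Vaultrc5, a vault RNA gene, past Zmat2 (36.6 and 18.5 in Ctrl, 23.1 and 21.3 in KO). In 26 peaks a lincRNA or antisense gene started inside, and their median was 10 CPM per kb. The strongest held the start of Gm31763, antisense, past Reep3, with 43.4 and 36.6 CPM in Ctrl and 46.2 and 41.5 CPM in KO. Leaving out every peak near a gene of any type left 2815 downstream peaks (80.7%), with a median of 6.98 CPM per kb.

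Gene models mattered at the margin. In RefSeq, 247 downstream peaks (7.08%) overlapped a protein-coding gene, 174 of them the same gene with a longer model, and 81 lay within 3 kb of an mRNA start. Downstream peaks between genes that end towards each other numbered 351 (10.1%), and their median level was 7.12 CPM per kb, compared with 6.97 for the 3107 peaks with a single gene end within 5 kb.

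In base composition, downstream peaks had the GC content of gene-body peaks. The median GC content of the central 300 bases was 48.3% (first and last quartile bounds 44.3 and 52), the same as in 3′ gene-body peaks, while it was 47.3% in upstream peaks and 46.7% in other intergenic peaks. Repeat-masked bases made up 22.4% of the windows on average, between 18.1% in 3′ gene-body peaks and 26.0% in other intergenic peaks, with 27.4% in upstream peaks. Few were CpG-rich: 73 windows (2.09%) had an observed over expected CpG ratio above 0.6. These are descriptions of nearby and partly related sequences, with no test.

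Short motifs were searched on both strands of the same windows, where AP-1 stands for the letters TGANTCA and RUNX for the letters TGTGGT. ETS stands for the letters GGAAGT, the GATA factors for the letters AGATAA and the TCF factors for the letters CTTTGAA. STAT stands for the letters TTCNNNGAA, CREB for the letters TGACGTCA and KLF for the letters GGGTGTGG. The poly(A) signal AATAAA and the core of CTCF were searched as well. Matches can overlap each other. RUNX letters occurred in 25.3% of downstream peaks, and in 25.3%, 24.8% and 24.2% of upstream, other intergenic and 3′ gene-body peaks, while 16.8% of all 32851 RefSeq promoter windows of the same length held them. AP-1 letters occurred in 10.2% of downstream peaks, against 11.0%, 10.8% and 9.35% in the same order and 7.81% of promoters. ETS, STAT and CREB letters were less frequent than in promoters, at 20.5% against 23.8%, 8.26% against 8.30% and 0.229% against 1.79%. The other motifs searched were more frequent in downstream peaks than in promoters. GATA letters were found in 12.5% of downstream peaks, against 14.2%, 15.1% and 13.0% in the same order and 11.2% of promoters. AATAAA letters occurred in 21.8% of downstream peaks, against 22.1%, 24.1% and 21.9% in the same order. The rule left out peaks that overlap a gene, so these shares do not bear on the cleavage signal of the gene end itself. Within the class, motif shares differed by level, which is given with no test. In the 349 peaks strongest per kb, ETS letters occurred in 28.1%, AP-1 letters in 13.8% and KLF letters in 5.73%, while in the weaker 1743 peaks the shares were 19.7%, 9.52% and 3.44%. Other letters were less frequent in the strongest peaks, with AATAAA in 16.6% against 24%, GATA letters in 10.6% against 13.3% and TCF letters in 6.88% against 7.69%. A match is a description of letters and not of binding.

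Genes of Treg and T cell biology often had downstream peaks. Of the 35 Treg genes listed, 28 had at least 4 kb of eligible sequence, and 15 of those (53.6%) had a downstream peak. Among T cell genes the figure was 15 of 26 (57.7%), among immediate early and NF-kB genes 20 of 31 (64.5%), among cytokine receptor and STAT genes 10 of 23 (43.5%), and among trafficking genes 6 of 16 (37.5%). The background was 19.2% over all such genes and 42.0% over those in promoter class 4. How far promoter signal accounts for the list values was not tested. The names with higher mRNA in KO large intestinal Treg cells in the study's list had a share of 41.5% (156 of 376) and those with lower mRNA 32.1% (90 of 280). The colonic and splenic Treg signatures of the study had 29.3% (89 of 304) and 32.7% (85 of 260).

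Among Treg genes the Lag3 peak 2974 bp past the gene end was the strongest. Klrg1, a receptor of terminally differentiated Treg cells, came next with 25.3 and 17.9 CPM in Ctrl and 20.1 and 30.2 CPM in KO. Il10, the anti-inflammatory cytokine gene, had 3 downstream peaks, and the strongest, 1430 bp past its end, measured 21.3 and 15.8 CPM in Ctrl and 39.5 and 13.9 CPM in KO. The high value was that of 1 KO library, and the other KO library was the lowest of the 4. Batf, an AP-1 family factor of effector Treg cells, had 2 peaks, of which the nearer measured 18.1 and 18.2 CPM in Ctrl and 25 and 14.6 CPM in KO. Lrrc32, which encodes the TGF-beta presenting protein GARP, had 4 peaks, all under 10 CPM on average. Il10, Batf and Lrrc32 were chosen for description after their values were seen.

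Among T cell genes, the Runx3 peak measured 32.6 and 24.7 CPM in Ctrl and 16.4 and 31.1 CPM in KO, and that of Bach2, a repressor that keeps T cells naive-like, measured 27.1 and 13.1 CPM in Ctrl and 23.8 and 20.1 CPM in KO. In the cytokine group, Socs3, a feedback inhibitor of JAK and STAT signalling, measured 28 and 30.1 CPM in Ctrl and 45.1 and 37.6 CPM in KO. Every KO value exceeded every Ctrl value at this Socs3 peak, with a log2 fold change of 0.50 (SE 0.33, edgeR adjusted p = 0.998). A much weaker Socs3 peak, 3455 bp past the gene end, had a log2 fold change of 0.07. Il2rb, the beta chain of the IL-2 receptor, measured 21.3 and 36 CPM in Ctrl and 22 and 54.4 CPM in KO, so that replicate libraries differed more than the groups. Nfkb1 had a peak of 17.2 and 14.0 CPM in Ctrl and 21.6 and 15.6 CPM in KO, and Nfatc1 one of 15.8 and 17.3 CPM in Ctrl and 10.4 and 17 CPM in KO. Of trafficking genes, the peak of Selplg, which encodes the selectin ligand PSGL-1, measured 16.3 and 27.7 CPM in Ctrl and 23.5 and 25.9 CPM in KO. S1pr1, the sphingosine-1-phosphate receptor that guides exit from tissues, had one of 11.3 and 10.7 CPM in Ctrl and 20.1 and 15.3 CPM in KO. At this S1pr1 peak the groups did not overlap, and the log2 fold change was 0.68 (SE 0.45, edgeR adjusted p = 0.998). Another S1pr1 peak, 3406 bp past the gene end, measured 16.3 and 8.93 CPM in Ctrl and 11.9 and 10.1 CPM in KO. Its groups overlapped, and its log2 fold change was -0.18.

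The comparison of KO with Ctrl asked whether loss of Setd2 changed H3K27ac at downstream peaks. No downstream peak passed an adjusted p of 0.05 in edgeR's quasi-likelihood test among the 1935 that had at least 10 counts in at least 2 libraries, and DESeq2 called none either. Over all 74550 tested peaks, 1 was called (0.00134%). At an unadjusted p under 0.05, 34 downstream peaks were higher and 48 lower in KO (1.76% and 2.48%), close to the 1.45% and 2.79% of all tested peaks, and DESeq2 had 13 and 23. The KO pair lay wholly above the Ctrl pair at 340 (17.6%) and wholly below it at 289 (14.9%) of the tested downstream peaks, against 16.9% and 16.4% of all. The median log2 fold change was -0.001, with 966 of 1935 above 0 (49.9%, against 49.2% of all tested peaks). In bulk libraries, a change in the share of cells that carry the mark and a change of its level per cell cannot be told apart.

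The extremes are given as a description, as the 5 higher and 5 lower peaks ranked first by p where the KO and Ctrl ranges were apart. The Trappc3l peak, 1325 bp past the gene for a TRAPP trafficking complex subunit, counted 17 and 12 in the Ctrl pair, against 47 and 54 in the KO pair, with a log2 fold change of 1.47 (SE 0.53, edgeR adjusted p = 0.998). The gene had no promoter peak. The Scube1 peak measured 15.8 and 21.4 CPM in Ctrl and 28.3 and 42.9 CPM in KO, with a log2 fold change of 0.93 (SE 0.36), and it lay inside the longer RefSeq model of Scube1. The Auh, Riok2 and Zswim4 peaks were weaker, with means of 3.68, 2.70 and 5.61 CPM in Ctrl and 10.6, 8.80 and 14.1 CPM in KO. Auh encodes a mitochondrial hydratase of leucine breakdown and Riok2 a kinase of ribosome maturation.

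The lower peaks were shallow in KO. The Mcm5 peak, past a subunit gene of the replicative helicase, counted 12 and 22 in the Ctrl pair, against 1 and 3 in the KO pair. The ratio of KO to Ctrl over summed counts, scaled by library size, was 0.0956 (95% counting interval 0.0246 to 0.268). The Dyrk1b peak, past a protein kinase gene and inside its RefSeq model, counted 10 and 21 in the Ctrl pair, against 0 and 3 in the KO pair. Its ratio, scaled in the same way, was 0.0786 (0.0154 to 0.252). The Ccni peak, past the cyclin I gene, counted 38 and 29 in the Ctrl pair, against 12 and 16 in the KO pair. It lay between genes that end towards each other and overlapped another protein-coding gene in RefSeq. Stk31 and Pdcd6 had log2 fold changes of -1.82 (SE 0.67) and -1.36 (SE 0.51). All 10 had an edgeR adjusted p of 0.998, and none followed a gene of the 5 lists.

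**Figure D4:**
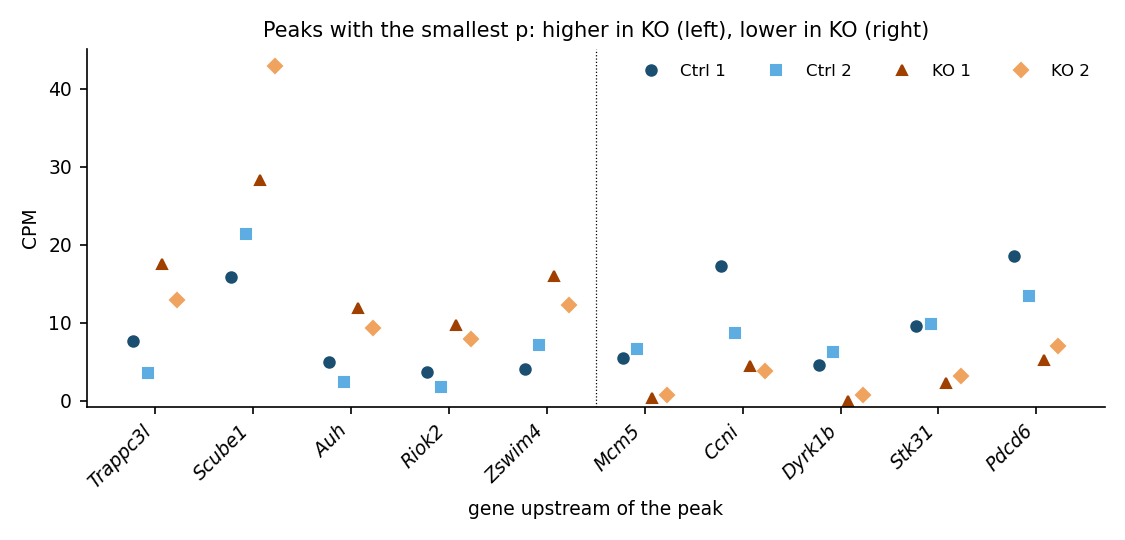
CPM (vertical axis) in each library of the 5 higher (left of the dotted line) and 5 lower (right) downstream peaks ranked first by p where the KO and Ctrl ranges were apart, named by the gene upstream. Scube1 reaches 42.9 CPM in KO 2, while Mcm5 and Dyrk1b lie below 1 CPM in both KO libraries; no adjusted p was below 0.998.

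By gene list, no peak was called. Genes on the 5 lists had 112 downstream peaks, of which 81 were tested, and 53 of these (65.4%) had a log2 fold change above 0 and 28 below, against 49.9% above 0 over all tested downstream peaks. Their median log2 fold change was 0.205, against -0.001 over all tested downstream peaks. The KO pair lay wholly above the Ctrl pair at 21 (25.9%) and wholly below it at 7 (8.64%), against 17.6% and 14.9% of all tested downstream peaks. The median fell to 0.011 without Ctrl 2 and was 0.106 to 0.318 without any other library. Cytokine receptor and STAT genes had the highest list median, 0.445 over 12 peaks, and Treg genes had 0.111 over 21. Among the study's lists, tested peaks of genes with higher mRNA in KO had a median log2 fold change of 0.129 (167 peaks) and those of genes with lower mRNA had -0.046 (74 peaks).

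The position relative to the gene end went with the KO over Ctrl value. The median log2 fold change was -0.342 at peaks 4 to 5 kb before the gene end, inside the gene, and -0.192 in the last kb of the gene. Past the end it was -0.105, -0.037, -0.011, 0.069 and 0.104 in the 5 successive kb, over 415, 498, 407, 313 and 302 tested downstream peaks. Beyond 5 kb it was -0.045 in the next kb and between 0.035 and 0.229 from there to 20 kb. Downstream peaks within 2 kb had a median of -0.074 (913 peaks) and those at 2 to 5 kb a median of 0.051 (1022 peaks), and these bins were chosen after the values were seen.

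Along this course 2 libraries moved in opposite ways. Relative to the mean of the 4 libraries, the median peak in Ctrl 2 deviated by 0.429 (log2) at 4 to 5 kb before the gene end, by 0.142 in the first kb past it, by -0.049 at 4 to 5 kb past it and by -0.114 at 19 to 20 kb. KO 1 deviated by -0.229, 0.010, 0.131 and 0.243 at the same places. Ctrl 1 stayed within -0.071 and 0.085 over the whole range, and KO 2 within -0.046 and 0.095. At 4 to 5 kb before the gene end the Ctrl libraries differed from each other more than the groups did, while at 4 to 5 kb past it both KO values (0.131 and 0.068) lay above both Ctrl values (0.015 and -0.049). Within downstream peaks, the difference between the first 2 kb and the rest was -0.048 and 0.150 in Ctrl and -0.030 and -0.049 in KO (exact permutation test, two-sided p = 0.667). The sign of the nearer peaks rested on Ctrl 2 and KO 2. Their median log2 fold change was 0.079 without Ctrl 2 and 0.007 without KO 2, and the peaks at 2 to 5 kb had -0.000 and 0.085. The sign of the peaks at 2 to 5 kb was not stable either. Their median was -0.030 without KO 1, 0.094 without Ctrl 1 and -0.005 with total counts as library size.

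**Figure D5:**
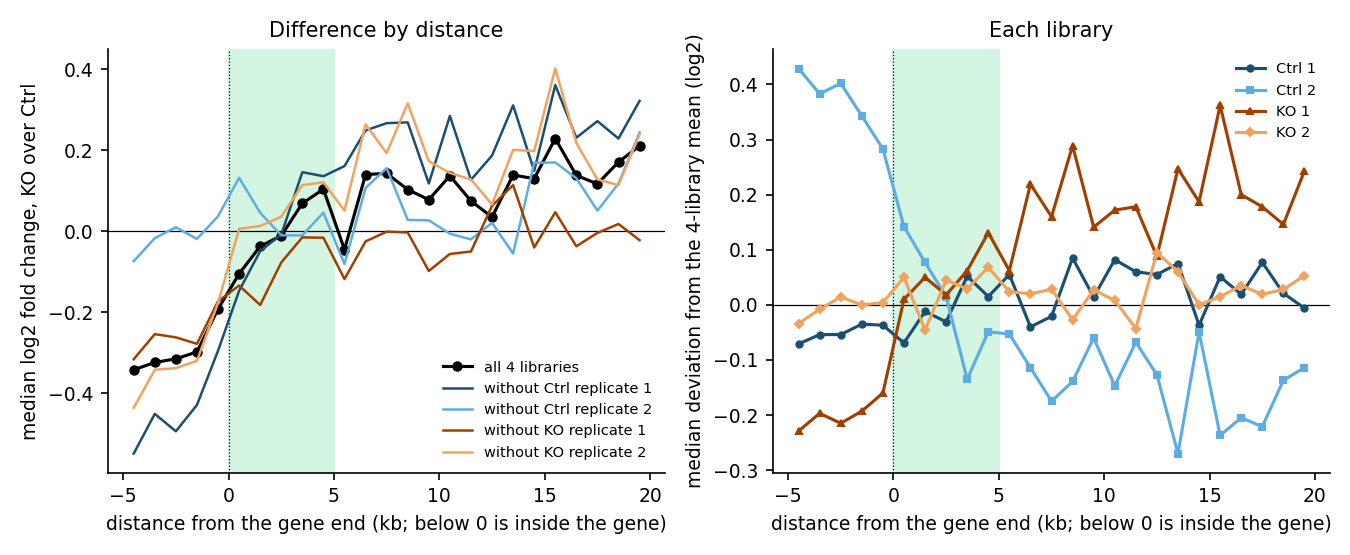
Left, median log2 fold change of KO over Ctrl (vertical axis) among tested peaks by distance from the gene end (horizontal axis, kb; below 0 inside the gene), with all 4 libraries (black) and with each library left out (colours). Right, median deviation of each library from the mean of the 4 (log2, vertical axis) at the same distances; Ctrl 2 falls from 0.429 to -0.114 and KO 1 rises from -0.229 to 0.243 across the gene end, while Ctrl 1 and KO 2 stay near 0, and the shading marks the downstream peaks.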

How the data were processed

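The counts used here are the table deposited by the authors: whole-number read counts in merged peaks for the 4 H3K27ac libraries, not normalized. According to the study's methods and the submitters' processing notes, reads (150 bp, paired ends) were aligned to mm10 with Bowtie2, duplicates and multiply mapped reads were removed, peaks were called per library against IgG with MACS2 at p 0.01, merged and counted with bedtools; versions are not given in the sources used here. Merged peaks hide which library a peak came from, and unique mapping lowers counts in repeats. Depth limits precision, since the median downstream peak had 7 to 12 counts per library.

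Peaks were placed with GENCODE M21 gene models (basic set, mm10) and windows read from GRCm38.p6, whose RefSeq models were also tried. Members and gene lists were chosen with earlier results of these data known. CPM are counts per 1000000 of the TMM-scaled library size. KO was compared with Ctrl in edgeR 4.0.16 (R 4.3.3), by quasi-likelihood F test over the 74550 peaks that reached 10 counts in 2 or more libraries, Benjamini-Hochberg adjusted. The prior degrees of freedom were infinite, so each peak was tested with the fitted spread; SE is the log2 fold change over the root of F. The model was tested on simulated data. Library values were compared by exact permutation and sign-flip tests (scipy 1.17.1). Levels used log2(CPM per kb + 0.1), and library deviations log2(CPM + 0.5). Named peaks were the 12 with the highest mean CPM, the 5 higher and 5 lower with the smallest p among those whose groups did not overlap, the 2 strongest of each gene list, and those of the 3 genes with most peaks; 1 of these genes and 1 peak sequence are not reported here. The p-values rest on the spread between libraries, each made from 1 pool of mice, and do not measure the spread between single mice. In edgeR this spread was fitted across peaks and not taken from each peak alone. Alternatives tried were DESeq2 1.42.0, other scalings and filters, a replicate block, each library left out, other distance limits, and genes of every type; promoter classes, distance bins and RefSeq models were added after seeing the data.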

Additional observations from a re-analysis of the deposited data

How the results depend on the processing

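At downstream peaks the count of calls at an adjusted p under 0.05 stayed at 0 under DESeq2 and under every other alternative run except the replicate block, which called 1 of 1935 peaks higher, beside 152 higher and 59 lower of all 74550. That peak, chosen after its values were seen, lay 1366 bp past Itgb8 (20 and 3 counts in Ctrl against 68 and 30 in KO; edgeR adjusted p = 0.0331 with the block and 0.998 without it). The replicate numbers are shared by the labels, but nothing says that they mark a litter or a day. Deviations of same-numbered libraries correlated at r = 0.257 over all tested peaks and 0.172 over tested downstream peaks, with only 2 pairs, so the numbers were not taken as pairs. Peaks at an unadjusted p under 0.05 numbered 34 higher and 48 lower, and 13 and 23 with DESeq2, 1 and 2 of 209 with at least 50 counts in 2 libraries, 78 and 69 with the block, 44 and 75 with every peak that had any count, and 21 and 32 within 2 kb. With 1 library left out they ranged from 12 to 42 higher and from 23 to 42 lower. Fewest were higher without KO 2 (12) and KO 1 (13), and without KO 1, Ctrl 1 or Ctrl 2 there were 23, 27 and 30 lower. The median log2 fold change, -0.001, was -0.058 with total counts as library size, 0.038 with a loess offset, -0.074 within 2 kb, 0.034 within 10 kb, and between -0.092 and 0.043 with 1 library left out. The difference between peaks within 2 kb and those at 2 to 5 kb, -0.125, was -0.024 with at least 50 counts, and ranged from -0.167 to 0.079, the last without Ctrl 2. The share of counts, which differed by -0.0718 percentage points between KO and Ctrl, differed by -0.827 with counts of distal peaks as denominator (8.81% in Ctrl and 7.98% in KO), by -0.0642 within 2 kb (0.703% and 0.739% in Ctrl, 0.691% and 0.622% in KO; exact permutation p = 0.333) and between -0.153 and 0.00961 with 1 library left out. Level differences, 0.159 against other intergenic, 0.065 against 3′ gene-body and 0.043 against upstream peaks, changed sign in the first and last (-0.055 and -0.028) over tested peaks alone, and in the second as CPM per peak (-0.013). With 1 library left out their differences ranged from 0.025 to 0.304 against other intergenic peaks, from -0.020 to 0.154 against gene bodies and from -0.065 to 0.134 against upstream peaks. The number of downstream peaks, 3487, was 1646 within 2 kb, 5454 within 10 kb, 3504 with gene record starts alone, 3519 without a width limit and 3199 with RefSeq models. The density within 5 kb over that from 5 to 10 kb was 1.42 in peaks and 1.30 in summed counts.

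Among the named peaks, small log2 fold changes changed sign. That of Ick was -0.03 with the loess offset. That of Actr10 was -0.00 with total counts, -0.09 with loess and -0.05 with at least 50 counts. That of Prss12 was -0.04, -0.16 and -0.09 under the same settings. With 1 library left out the ranges were -0.43 to 0.72 for Actr10, -0.12 to 0.98 for Anp32e, -0.31 to 0.73 for Bach2, -0.18 to 1.01 for Cmtm6, -0.05 to 0.31 for Ick, -0.43 to 0.90 for Il2rb, -0.12 to 0.50 for Klrg1, -0.70 to 0.02 for Nfatc1, -0.01 to 0.45 for Nfkb1, -0.38 to 0.51 for Prss12, -0.82 to 0.11 for Runx3, -0.17 to 0.61 for Selplg and -0.46 to 0.15 for Tbc1d5. The 5 higher and 5 lower named peaks, ranked by p among those with groups apart, kept their direction in each fit that held them. Because they had been picked with groups apart, leaving out a library could hardly turn their sign, so this lends them no support. The Mcm5, Dyrk1b and Riok2 peaks missed the count filter in some of the fits without a library. The cause of these shifts was not tested.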
